A study of Sus scrofa with 4 samples.

Results

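The transcripts described here encode the swine leukocyte antigen (SLA) class I molecules and the proteins that load peptides onto them. The members were the non-control array probes whose design accession is a RefSeq transcript of 1 of 10 pig genes in the NCBI gene table of Sscrofa11.1. In all, 17 of 43603 probes met this rule, and they represented 6 of the 10 genes. *SLA-3* had 7 probes, *SLA-8* had 4, *B2M* and *TAP1* had 2 each, and *SLA-6* and *SLA-7* had 1 each. *SLA-1*, *SLA-2*, *TAP2* and *TAPBP* matched no probe by this rule and were not analysed here.

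A class I molecule pairs a heavy chain with beta-2-microglobulin and shows peptides from inside the cell to CD8+ T cells and natural killer cells. In pigs, *SLA-1*, *SLA-2* and *SLA-3* are the classical, highly polymorphic heavy chain genes, and *SLA-6*, *SLA-7* and *SLA-8* are the non-classical ones. The peptides are cut by the proteasome and carried into the endoplasmic reticulum by the TAP1/TAP2 transporter, where tapasin, the product of *TAPBP*, bridges the transporter and the empty heavy chain. In the intestine, class I molecules are made by epithelial cells and by the lymphocytes, macrophages and stromal cells below them, and interferons are well-known inducers of the whole set.

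Ileum was taken at 16 days of age from suckling piglets that had gained little or much weight, called low gain and high gain here, whose dams were Yorkshire × Landrace crosses and whose sires were Duroc boars. Both groups were nursed by their sows. RNA from 2 low-gain piglets was pooled for each of 2 arrays (a and b), and RNA from 3 high-gain piglets was pooled for each of 2 further arrays (a and b). The series design names birth weight in place of weight gain, and the groups here follow the sample labels. Whether arrays a and b of a group came from separate pools is not stated, so p-values cover only array-to-array spread, possibly technical, with no measure of spread between animals. In tissue pools like these, fewer cells of a type and less RNA per cell cannot be told apart.

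The scanner software marked 32835 to 33972 of 43803 non-control spots per array as well above background, the 17 spots of the members among them on all 4 arrays. None of the 17 was saturated or carried an outlier flag. *FABP6*, which encodes the ileal bile acid binding protein, and which marks the labelled tissue, read 8.65 and 8.72 in low gain, against 8.55 and 8.76 in high gain. Levels below are log2 processed signals minus the array's 75th percentile, so that a level of 0 equals the 75th percentile of the array's non-control spots. Precision is limited by having 2 arrays a group. No file used here holds probe or transcript sequences, so none is printed.

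No member passed the test in the comparison of low with high gain (0 of 17 probes, limma, adjusted p 0.161 to 0.955), beside 0.24% of all 33265 probes tested. At an unadjusted p under 0.05 there were 4 of 17 member probes, against 18.4% of all probes. By their means, 11 member probes were lower in low gain and 6 were higher, where 47.3% of all tested probes were lower. The median log2 change was -0.13 for the members and 0.02 for all tested probes. Read by 1 probe per gene, that with the highest mean signal, 3 genes had a higher and 3 a lower mean in low gain, with a median of 0.02 over 6 genes, equal to the 0.02 over all 2158 genes, of which 46.6% were lower. Of these 6 genes 0 passed, against 0.417% of all genes, and 1 had an unadjusted p under 0.05, against 21.6% of all genes.

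**Figure D1:**
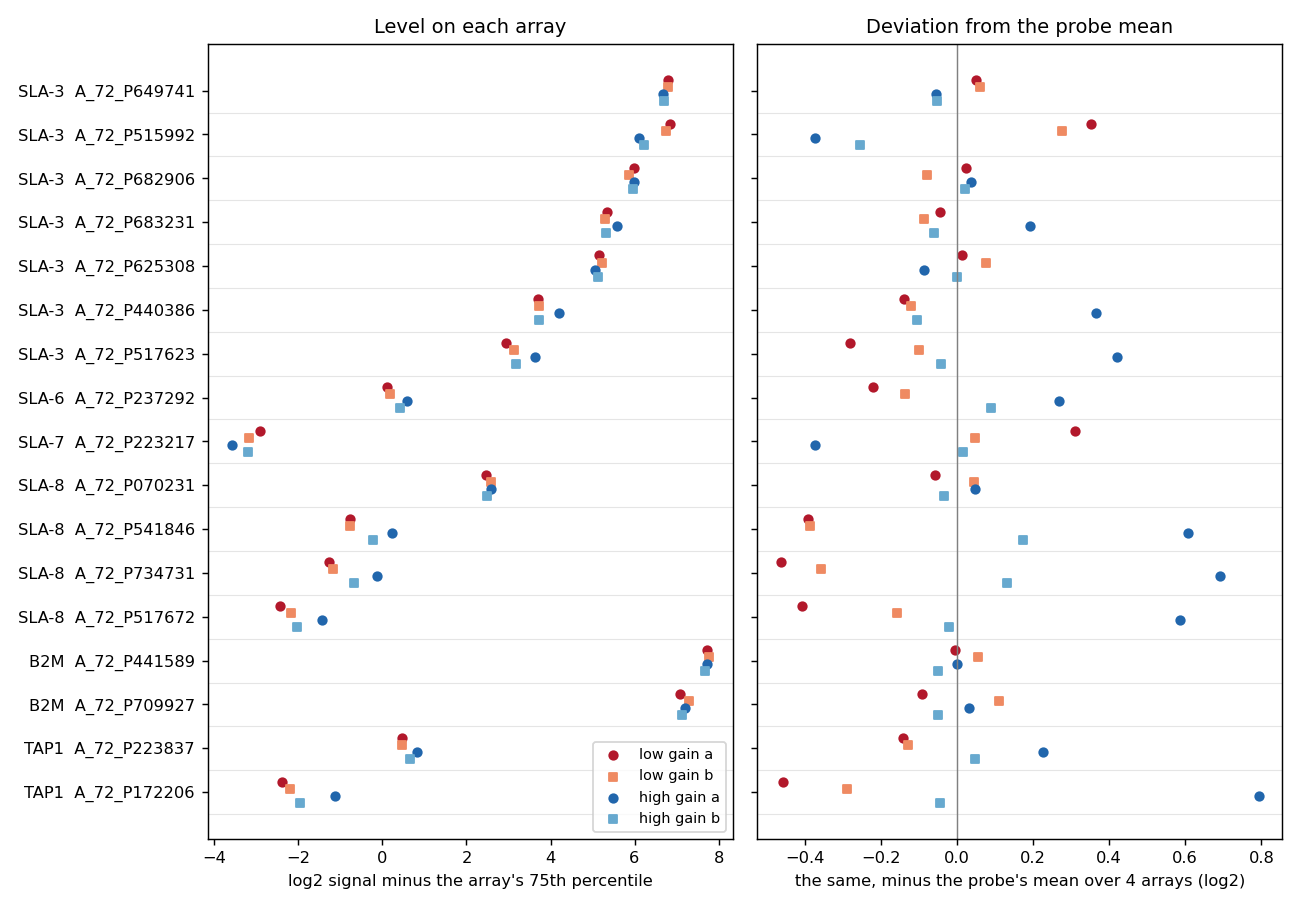
Levels of the 17 probes on each array (left, log2 signal minus the array's 75th percentile) and the same values minus each probe's mean over the 4 arrays (right). Red circles and orange squares are low-gain arrays a and b, dark blue circles and light blue squares are high-gain arrays a and b. The *B2M* probes lie together on all arrays. In contrast, 3 *SLA-8* probes, 2 *SLA-3* probes and 1 *TAP1* probe have high-gain array a far to the right.

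*B2M*, which encodes the light chain shared by all class I molecules, had similar values in both groups. Probe A_72_P441589 read 7.72 and 7.78 in low gain, against 7.72 and 7.67 in high gain. Probe A_72_P709927 read 7.08 and 7.29 in low gain, against 7.21 and 7.12 in high gain. The groups overlapped on both probes. The log2 changes were 0.05 ± 0.10 and 0.02 ± 0.12 (SE of the limma fit, n = 2 arrays per group, adjusted p = 0.804 and 0.945). The 95% intervals of the fit allowed a fold of 0.854 to 1.25 for the first probe and of 0.799 to 1.28 for the second. The gene table holds 2 neighbouring entries named *B2M*, with 1 other gene between them, and both probes carry a transcript of the same entry. Whether transcripts of the other copy also bind these probes was not tested.

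The 7 probes assigned to *SLA-3*, a classical heavy chain gene, gave log2 changes on both sides of 0, from -0.38 to 0.63. The probe with the highest mean signal, A_72_P649741, read 6.79 and 6.80 in low gain, against 6.69 and 6.69 in high gain. Its groups did not overlap, but its change was only 0.11 ± 0.10 (limma adjusted p = 0.573). Probe A_72_P515992 read 6.83 and 6.76 in low gain, against 6.11 and 6.23 in high gain. Here the gap between the groups, 0.53, was far wider than the differences within them, 0.08 in low gain and -0.12 in high gain (array a minus array b).

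For A_72_P515992 the log2 change was 0.63 ± 0.11, or 1.55-fold higher in low gain (95% interval of the fold 1.26 to 1.90). Its adjusted p was 0.161, so it did not pass. It was the member probe with the lowest p, and it did pass when limma's prior variance was allowed to follow signal intensity (adjusted p = 0.0157), a setting that called 3.76% of all probes (2.26% higher and 1.5% lower in low gain) and no other member. Under that setting limma's adjusted p was 0.0487 without low-gain array b, 0.0460 without high-gain array b, 0.103 without low-gain array a and 0.113 without high-gain array a, so that the call was lost without either array a. Each of these fits leaves 1 array in a group, which is assumed to vary like the arrays of the other group, so they say little about how stable the call is. It also passed with the background correction normexp (0.56, adjusted p = 0.0129), a setting that called 3.72% of all probes.

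The means of 2 dimmer *SLA-3* probes lay the other way. Probe A_72_P440386 read 3.70 and 3.72 in low gain, against 4.20 and 3.73 in high gain, and A_72_P517623 read 2.94 and 3.12 in low gain, against 3.64 and 3.18. On both probes the high-gain arrays lay above the low-gain arrays, but only high-gain array a stood clear of the rest. The changes of -0.26 ± 0.19 and -0.38 ± 0.20 did not pass (limma adjusted p = 0.505 and 0.386). Without high-gain array a they were -0.03 and -0.15, and without high-gain array b they were -0.50 and -0.61, so that their size rests on array a. The other 3 probes, A_72_P682906, A_72_P683231 and A_72_P625308, had changes of -0.06, -0.13 and 0.09 with adjusted p from 0.613 to 0.787.

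The disagreement between *SLA-3* probes can be read within each array, where it does not depend on scaling. The level of A_72_P515992 minus that of A_72_P517623 was 3.90 and 3.64 in low gain, against 2.47 and 3.05 in high gain. The difference between groups was 1.01, the largest of the 21 pairs of *SLA-3* probes. With 2 arrays a group, an exact two-sided permutation test cannot give a p below 0.333. In 15 of the 21 pairs the within-array difference did not overlap between groups, beside 54.8% of all 8426 pairs of probes of 1 gene. All 6 pairs that include A_72_P515992 were among them, while the pairs without it gave 9 of 15 (60%), near the share over all pairs. This count does not set A_72_P515992 far apart from every other *SLA-3* probe. The groups overlapped for A_72_P649741 only in its pair with A_72_P625308, and for A_72_P517623 only in its pair with A_72_P682906. By size other pairs disagreed too, with differences of 0.49 (A_72_P649741 minus A_72_P517623) and 0.47 (A_72_P625308 minus A_72_P517623).

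The gene table shows how closely these loci lie together. In it the *SLA-3* entry lists SLA-1 and SLA-7 as other names, its span overlaps that of *SLA-2*, and the span of *SLA-2* also overlaps that of *SLA-1*. *SLA-8*, *SLA-7* and *SLA-6* are direct neighbours, with 0 genes between them. Class I heavy chain genes are closely similar in sequence, so which gene or allele each SLA probe measured is uncertain. Cross-hybridisation was not tested.

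*SLA-8*, a non-classical heavy chain gene, had a mean below that of high gain on all 4 probes. The probe with the highest signal, A_72_P070231, read 2.47 and 2.58 in low gain, against 2.58 and 2.50 in high gain. These groups overlapped, and the change was -0.01 ± 0.11 (limma adjusted p = 0.955). Its 95% interval allowed a fold of 0.807 to 1.22.

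The other 3 *SLA-8* probes had larger differences. Probe A_72_P541846 read -0.78 and -0.78 in low gain, against 0.22 and -0.22 in high gain. Probe A_72_P734731 read -1.27 and -1.17 in low gain, against -0.12 and -0.68 in high gain. Probe A_72_P517672 read -2.43 and -2.18 in low gain, against -1.43 and -2.04 in high gain. All 3 had both low-gain arrays below both high-gain arrays, and on all 3 high-gain array a was the highest of the 4.

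The log2 changes of these 3 probes were -0.78 ± 0.18, -0.82 ± 0.22 and -0.57 ± 0.25, and none passed (limma adjusted p = 0.195, 0.212 and 0.331). In linear terms the first was 0.583-fold in low gain relative to high gain (95% interval 0.412 to 0.825). Without high-gain array b and with the intensity trend, the first 2 passed (limma adjusted p = 0.0440 and 0.0460), in a fit with 1 high-gain array that called 1.63% of all probes. Without high-gain array a the changes of the 3 probes were -0.56, -0.54 and -0.26, and with normexp they were -0.41, -0.37 and -0.21. Replacing bright local backgrounds before normexp gave -0.72, -0.66 and -0.38.

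*SLA-6* and *SLA-7*, both non-classical, were read by 1 probe each and differed in opposite directions. *SLA-6* read 0.11 and 0.19 in low gain, against 0.60 and 0.42 in high gain, with a change of -0.36 ± 0.12 (limma adjusted p = 0.252). *SLA-7* read -2.91 and -3.17 in low gain, against -3.59 and -3.20 in high gain, with a change of 0.36 ± 0.19 (limma adjusted p = 0.394). The *SLA-7* value depended on the setting. It was 0.07 with normexp, 0.14 with normexp and bright backgrounds replaced, and 0.16 to 0.55 when 1 array was left out. The groups did not overlap for either gene, but for *SLA-7* low-gain array b and high-gain array b were only 0.03 apart. The *SLA-7* spot was dim, with median pixels of 80.5 and 76.5 in low gain and of 62.0 and 78.0 in high gain, over a local background of 17.0 to 21.0.

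*TAP1*, which encodes a subunit of the peptide transporter, had a lower mean in low gain on both probes. Probe A_72_P223837 read 0.46 and 0.48 in low gain, against 0.83 and 0.65 in high gain. Probe A_72_P172206 read -2.38 and -2.21 in low gain, against -1.13 and -1.96 in high gain. The groups did not overlap on either, and on the second probe high-gain array a was 0.84 above high-gain array b. The changes of -0.27 ± 0.12 and -0.75 ± 0.32 did not pass (limma adjusted p = 0.317 and 0.315). The second was -0.33 without high-gain array a, -1.17 without high-gain array b and -0.27 with normexp. With normexp and bright backgrounds replaced it was -0.50.

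**Figure D2:**
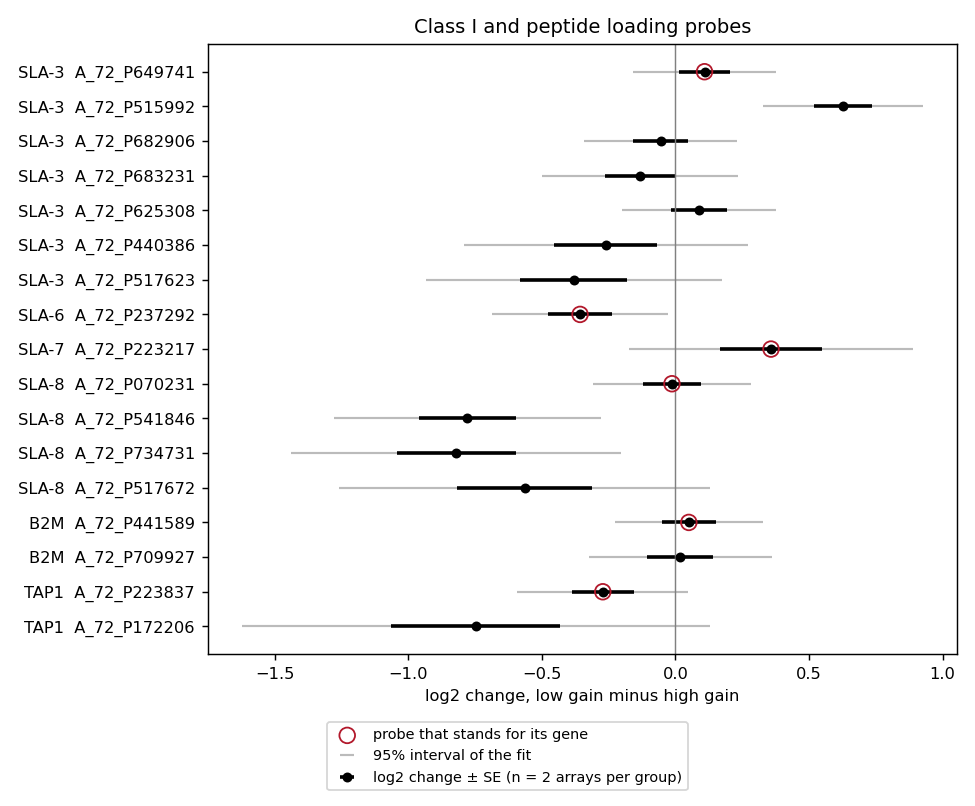
The log2 change of each probe, low gain minus high gain, with its SE (black bar) and the 95% interval of the limma fit (grey bar), from 2 arrays per group. Red rings mark the probe that stands for its gene. Of the 6 ringed probes 3 lie above and 3 below 0, while *SLA-3* probes spread from -0.38 to 0.63.

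The groups did not overlap on 12 of the 17 member probes, 4 of them higher and 8 lower in low gain. Over all tested probes the share was 54.5% (27.6% higher and 26.9% lower). For the genes read by 1 probe each the count was 4 of 6, beside 61.8% of all genes.

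High-gain array a often read higher than its partner on these probes. It lay above high-gain array b on 13 of the 17 member probes, by a median of 0.18 (log2), whereas over all tested probes it lay above on 44.3%, with a median of -0.03. At a limit of 0.4, chosen after the values were seen, high-gain array a exceeded array b on 6 of 17 member probes (3 of *SLA-8*, 2 of *SLA-3* and 1 of *TAP1*), beside 9.81% of all probes. The low-gain arrays were closer, with a median absolute difference of 0.08 on the member probes against 0.18 between the high-gain arrays. Without high-gain array a the median change of the 17 probes was -0.03, and without high-gain array b it was -0.26. The part of array a in the lower means was not tested further.

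**Figure D3:**
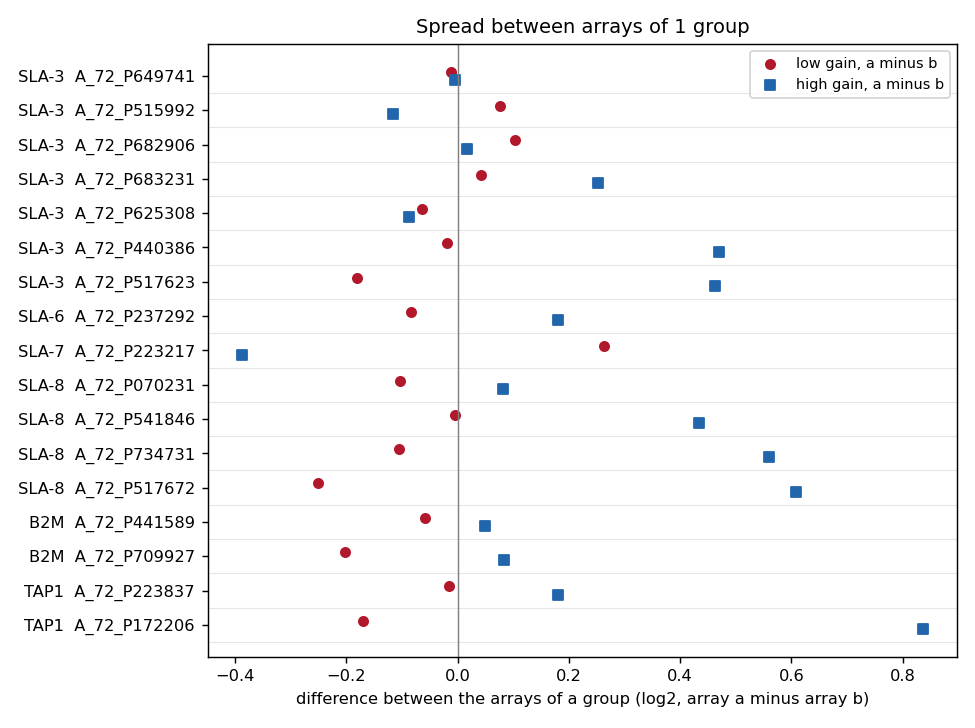
Difference between the arrays of 1 group, a minus b, for each probe (log2), with low gain as red circles and high gain as blue squares. The low-gain differences lie within 0.26 of 0, whereas the high-gain differences reach 0.84 on a *TAP1* probe and -0.39 on *SLA-7*.

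The brighter probe of a gene tended to have the more positive change. Among the 4 member genes with several probes, the brightest minus the dimmest probe gave a difference of changes of 0.49 for *SLA-3*, 0.55 for *SLA-8*, 0.48 for *TAP1* and 0.03 for *B2M*. That order was not particular to them. Over all 1166 named genes with at least 2 tested probes the brightest probe had the more positive change in 72.6%, with a median absolute difference of 0.22 between brightest and dimmest probe.

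By the rule set for likeness, *SLA-7* was the member gene with the largest absolute change when each gene was read by 1 probe, although its value moved with the setting as given above. The choice was a near tie, with *SLA-7* at 0.358 and *SLA-6* at -0.357. The 5 named genes closest to the *SLA-7* pattern over the 4 arrays, out of 2157 compared, were *TP23*, *PLAC9*, *SST*, which encodes somatostatin, *GRK7* and *ROPN1*. Their root mean square differences from *SLA-7*, after each gene's mean was subtracted, ran from 0.025 to 0.043 (log2). With 4 arrays this is a description of these libraries. None of the 5 passed the test (limma adjusted p 0.315 to 0.455).

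Read by 1 probe each, genes that supply the peptides were close to 0 in the same comparison. Of 11 listed genes of the proteasome and of peptide trimming, 6 were measured, and 0 passed in either direction. Their changes ran from -0.10 for *PSMB8*, which encodes an immunoproteasome subunit, to 0.07 for *PSMB10*, another such subunit, with a median of 0.00. *PSME1*, which encodes a subunit of the proteasome activator, was at 0.04, with its other probe at -0.10. The 2 other *PSMB8* probes were at -0.25 and -0.24, and the 2 other *PSMB10* probes were at 0.04 each. Of the 6 listed loading chaperones 1 was measured, *CALR*, which encodes calreticulin, at 0.05 ± 0.13.

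Class I-like molecules ran from -1.06 to 0.36 with a median of -0.50, and 0 of the 4 measured passed. *CD1.1* and *CD1D*, genes for lipid-presenting molecules that also pair with beta-2-microglobulin, were at -1.06 ± 0.14 and -0.72 ± 0.12 (limma adjusted p = 0.134 and 0.155). *CD1.1* read -0.42 and -0.30 in low gain, against 0.84 and 0.56 in high gain, and its other probe was at -1.07. The other *CD1D* probes, 2 in number, were at -0.41 and -0.10. *FCGRT*, which encodes the heavy chain of the neonatal immunoglobulin receptor, was at 0.36 ± 0.10 (adjusted p = 0.219), while its 2 other probes gave -0.37 and 0.04. With the intensity trend, *CD1.1* and *CD1D* fell and *FCGRT* rose past the test (adjusted p = 0.0137, 0.0177 and 0.0492), a setting that called 7.88% of all genes (5.19% higher and 2.69% lower in low gain).

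Regulators of class I transcription had a median of 0.01 over 12 measured genes, 6 higher and 6 lower by their means, and 0 passed. *RELA* and *NFKB1*, which encode NF-kB subunits, were at -0.73 ± 0.25 and -0.46 ± 0.16 (limma adjusted p = 0.262 for each), and the other *RELA* probe was at -0.91. *JAK2*, which encodes a kinase of the interferon-gamma receptor, was at 0.33 ± 0.10 (adjusted p = 0.236), with its other probe at -0.64. As on the *SLA-8* probes, high-gain array a stood above high-gain array b for *RELA* (0.61) and *NFKB1* (0.36).

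Listed receptors of CD8+ T cells and natural killer cells had a median of 0.46 over 4 measured genes, and 0 passed. *CD8A*, which encodes the coreceptor chain that binds class I, was at 0.95 ± 0.11 (limma adjusted p = 0.118), but its other probe was at 0.03. *KLRK1*, which encodes the activating receptor NKG2D, was at 0.65 ± 0.11 (adjusted p = 0.165), with its other probe at 0.76. *KIR2DL1* was at 0.28 ± 0.17. With the intensity trend, *CD8A* and *KLRK1* rose past the test (limma adjusted p = 0.0165 and 0.0428). That setting called 7.88% of all genes, 5.19% as higher and 2.69% as lower in low gain.

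**Figure D4:**
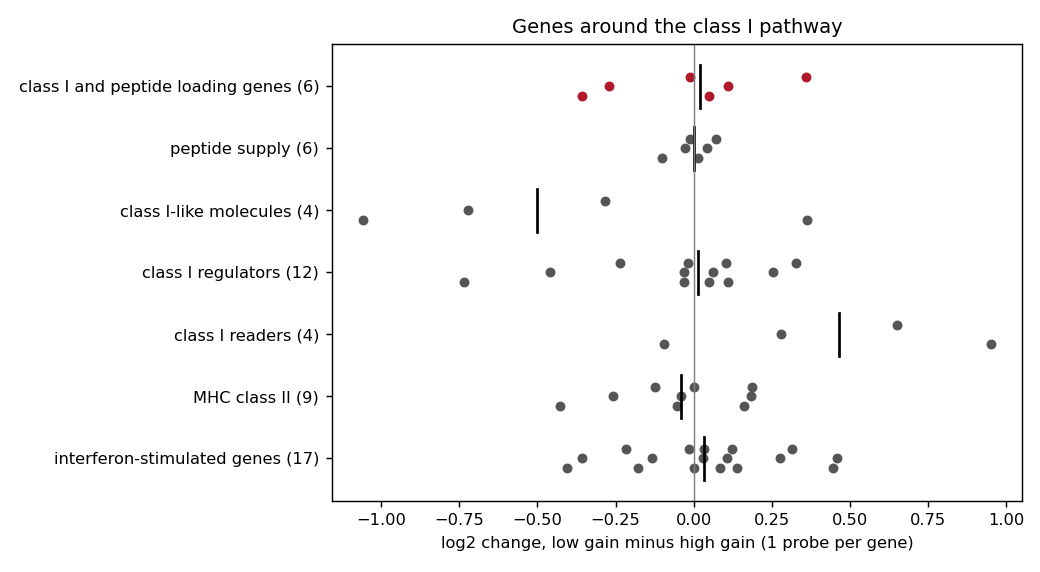
The log2 change of each measured gene, low gain minus high gain, read by 1 probe per gene, for the 6 class I and peptide loading genes (red) and for 6 lists around the pathway (grey). Black lines are medians, which lie at 0.02 for the class I and peptide loading genes and between -0.50 and 0.46 for the lists.

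The class II genes, whose products present peptides from outside the cell, had a median of -0.04 over 9 genes, with 4 higher and 5 lower by their means and 0 past the test. *CD74*, which encodes the invariant chain, was at -0.43 ± 0.12 (limma adjusted p = 0.218), with its other probe at -0.80. *SLA-DOA* was at -0.26 with its other probe at -0.23, and *SLA-DOB* was at 0.19 with its other probe at -0.10. Among 17 measured interferon-stimulated genes the median was 0.03, and 0 passed. The chemokine gene *CXCL9* and the antiviral gene *BST2* were at 0.46 ± 0.10 and 0.44 ± 0.10, and *USP18*, which encodes a brake on interferon signalling, was at -0.41 ± 0.10, with adjusted p from 0.185 to 0.198. With the intensity trend, *BST2* rose and *USP18* fell past the test (limma adjusted p = 0.0492 and 0.0371), where 7.88% of all genes passed. The class I medians were not tested against those of these lists.

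Markers of cell types in the ileum also differed between the groups on several lists, each gene read by 1 probe. Of 5 measured cytotoxic cell markers all 5 had a higher mean in low gain, and their summed linear signal, relative to the 75th percentile, was 14.1 to 14.6 in low gain against 6.41 to 6.52 in high gain. *GZMK*, which encodes a granzyme, rose by 1.67 ± 0.10 (limma adjusted p = 0.0383). When signal was required on all 4 arrays, 0 of all tested probes passed, so this call was lost. All 6 measured macrophage and dendritic cell markers had a lower mean in low gain, with sums of 22.4 to 22.6 against 25.0 to 25.2. Enterocyte markers had a higher mean in low gain for 7 of 8, with sums of 807 to 838 against 717 to 772. T cell markers were higher by their means for 5 of 7, while their sums were 15.9 to 16.1 in low gain against 19.4 to 21.0 in high gain. That order rested on the bright gene *CD247*, at -0.67 with its other probe at -0.86. Without *CD247* the other 6 summed to 6.60 to 7.34 in low gain against 5.81 to 5.85 in high gain. Smooth muscle sums were 266 to 270.3 in low gain against 206 to 209 in high gain, with *DES* at 0.51 and *CNN1* at 0.48 but *ACTA2* at -0.25. The 2 other *DES* probes were at -0.34 and -0.02, and the other *CNN1* probe was at 0.45. The 3 other *ACTA2* probes ran from -0.61 to 0.23. The sums of 5 adipocyte markers were 3.41 to 4.26 in low gain against 4.67 to 4.68 in high gain, and without *FABP4* (-1.55) they were 2.35 to 3.24 against 1.44 to 1.79, with *RETN* at 1.04. The cytotoxic, macrophage and dendritic cell, enterocyte and smooth muscle sums kept their order without their brightest gene. *ITGB2*, the measured marker of all leukocytes, was at -0.10. Endothelial sums overlapped, at 4.86 to 5.51 in low gain against 5.25 to 5.59 in high gain. Their part in the class I values was not tested.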

How the data were processed

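Scanner output for 4 one-colour (Cy3) arrays was used, written by version 10.7.3.1 of Agilent's Feature Extraction per the file headers. Per the file headers, its processed signal is a background-treated linear intensity, beside median pixel intensity of spot and local background. Flags for background, saturation and outliers are the software's own 0 or 1 marks. A deposited table of log2 values by the authors, of unstated processing, served as an alternative: its columns had medians of 5.59 to 5.67 and correlated at 0.982 to 0.993 with log2 processed signal (slopes 0.912 to 0.941).

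Log2 processed signals were centred on each array's 75th percentile of non-control spots. Flagged outliers were removed, repeat spots averaged, and 48 probes lacking a value set aside. Probes entered the test when both arrays of either group were well above background, which gave 33265. They were fitted together with limma 3.58.1 (lmFit, eBayes; R 4.3.3), with Benjamini-Hochberg adjustment at 0.05. The script was tested on simulated data. Of 5773 probes with a RefSeq accession, 5455 matched a gene. Alternatives covered scaling, filters, intensity trend, the authors' values and each array left out. They also covered background correction (normexp, offset 50, on median signals, then quantile normalisation).

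Every member probe is named, and from each pathway list the genes past the test or else up to 3 with the largest change. Members and lists were chosen with earlier results of these data known. All arrays shared 1 slide. The labels do not state that letters a and b pair the arrays. Over all tested probes a minus b correlated at -0.04 between groups, which alone cannot exclude a pairing.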

Additional observations from a re-analysis of the deposited data

How the results depend on the processing

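The count of member probes past the test was 0 with quantile normalisation, median centring, the authors' deposited values, no filter on dim probes, signal required on all 4 arrays and the letter as a replicate block (adjusted p of the members 0.346 to 0.964 with the block). It was 1 with the intensity trend, 1 with normexp and 1 with normexp when bright backgrounds were replaced, each time the *SLA-3* probe A_72_P515992. Leaving out 1 array gave counts of 0 to 3, the 3 without high-gain array b and with the intensity trend. The normexp version with bright backgrounds replaced and the trend without 1 array were added after the data were seen. Over all probes 80 passed, against 69 with quantile normalisation, 163 with median centring, 1237 with normexp, 820 with normexp and bright backgrounds replaced, 99 with the authors' values, 12 without a filter, 0 with signal on all 4 arrays, 1250 with the intensity trend, 0 with the block and 0 to 37 without 1 array. With the trend and without 1 array, 130 to 542 of all probes passed, the 542 (1.63%) without high-gain array b. The count of member genes past the test was 0 under every alternative run. The median change of the probes, -0.13, ran from -0.26 to -0.0261 when 1 array was left out. The median change of the genes, 0.02, was -0.18 with the mean over all probes of a gene, because the dimmer *SLA-8*, *SLA-3* and *TAP1* probes then count. Of the 17 probes, 15 kept their direction under all 17 alternatives, but not all of these could reverse a direction. The filters, the intensity trend and the block leave the log2 change of a probe as it was. With the trend and without 1 array, the changes repeat those without that array alone. The *B2M* probe A_72_P709927 (0.02) turned to -0.00475 with quantile normalisation and to -0.0215 with the authors' values, and ran from -0.0826 to 0.12 when 1 array was left out. The *SLA-8* probe A_72_P070231 (-0.01) ran from -0.0646 to 0.0384 when 1 array was left out. The cause of the other changes was not tested. The letters are not stated to pair the arrays, so the block is given only here. An alternative by gene names in the array design was not run, since these files hold no such column.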

Other observations

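The spread between probes of 1 gene was not a feature of the class I genes alone. Of 1166 named genes with at least 2 tested probes, 21.9% had a difference of at least 0.5 (log2) between the changes of their brightest and dimmest probe, and for 847 the brightest probe had the more positive change. Class II and interferon-stimulated genes were among them. *SLA-DMB* was at -0.12 on its brightest probe and at -0.67 on the other, and *USP18* at -0.41 and -0.99. For *SLA-3* the brightest and the dimmest probe differed in sign, at 0.11 and -0.38. The cause was not tested.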
